A study of Ovis aries with 44 samples.

Results

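The *semimembranosus*, a large muscle of the hind limb, was compared between callipyge (+/Cpat) and normal (+/+) lambs at 80 d of age. Of the 22 lambs of the series, 4 were of this age, 2 of each genotype, and all 4 were taken by the genotype and age in their labels. The callipyge lambs carried the mutation on the chromosome from the sire and a normal chromosome from the dam, and the normal lambs carried no mutated allele. By the study's methods, lambs of this age had been weaned and moved to individual pens, whereas the labels give 1 protocol of indoor nursing for lambs of every age. Each lamb gave 1 RNA sample and 1 bovine Affymetrix array. The other arrays were of the same genotypes at 10, 20 and 30 d (12 lambs), which serve below for the spread between lambs and for an earlier comparison, and of the Cmat/+ and C/C genotypes, which were not used. The comparison asks which transcripts differ between the genotypes at the oldest age of the series.

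Callipyge lambs grow enlarged, lean muscles of the loin and hind limb after birth. The mutation lies between the imprinted genes *DLK1* and *MEG3*, in a domain where *DLK1* and *RTL1* are read from the paternal chromosome and *MEG3* and other noncoding RNAs from the maternal chromosome. It raises the transcripts of the chromosome that carries it, and the phenotype appears only when the mutation comes from the sire alone. The enlarged muscles are known for thicker fast fibers and for a shift from oxidative toward glycolytic fibers.

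The array carries bovine probes while the RNA came from sheep, so each probe set was compared between lambs and never with another probe set. Values are log2 units of the Robust Multi-array Average (RMA), and a difference is callipyge minus normal. The median RMA value was 5.25 and 5.26 in the callipyge lambs and 5.27 in both normal lambs. The median MAS5 intensity of the same arrays was 14.3 and 20.3 in the callipyge lambs and 24.8 and 21.1 in the normal lambs, so the array of the first callipyge lamb was the dimmest of the 4. RMA values of 2 lambs of a genotype lay a median of 0.148 apart in callipyge and 0.128 in normal muscle. The labelled tissue was checked by 6 markers of the muscle fiber, whose summed level on the linear scale was 99110 to 99430 in callipyge and 94700 to 97360 in normal lambs. Skeletal actin (*ACTA1*) was between 14.73 and 14.75 and muscle creatine kinase (*CKM*) between 14.12 and 14.19 in the 4 lambs.

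In all, 153 of 24016 probe sets (0.637%) differed between the genotypes at an adjusted p under 0.1, 102 higher (0.425%) and 51 lower (0.212%) in callipyge muscle. These calls came from limma, which tested the difference at 80 d against the spread between lambs in all 16 arrays of both genotypes. The rises were the larger group, and a change of at least 1 on the log2 scale was reached by 61 rises and 32 falls. The median absolute difference was 1.09 among the called probe sets and 0.124 among all. Gene names were at hand for 130 of the called probe sets, in 116 genes. The genotypes did not overlap in any of the 153 probe sets, and they did not overlap in 43.2% of all probe sets. For the 153 this follows in large part from their choice by the difference between these same lambs. Of the called genes, 49 had several probe sets, which all went in one direction in 37 genes and of which more than 1 was called in 13. With 2 lambs of each genotype, an exact two-sided permutation test of these 4 values alone cannot give a p below 0.333.

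The number of calls depended on single lambs and on the array measure. Without the first or the second callipyge lamb at 80 d, 47 and 48 probe sets passed, and without the first or the second normal lamb 37 and 21. Of the 153 probe sets, 31, 42, 34 and 19 remained in these fits, and 13 remained in all 4: those of *SLC22A3*, *MAPK6*, *METTL21E*, *DLK1*, *PDE4D*, *LDHB*, *DNTTIP1*, *MYL3*, *MAP1A*, *LPL*, *PDLIM1*, *PARK7* and *S100A1*. With MAS5 values in place of RMA values, 2 probe sets were called, both higher in callipyge muscle and both among the 153, those of *MAPK6* and *DLK1*. All 153 had the same direction in the MAS5 values, as did 70.9% of all probe sets. RMA and MAS5 values come from the same 4 arrays.

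**Figure D1:**
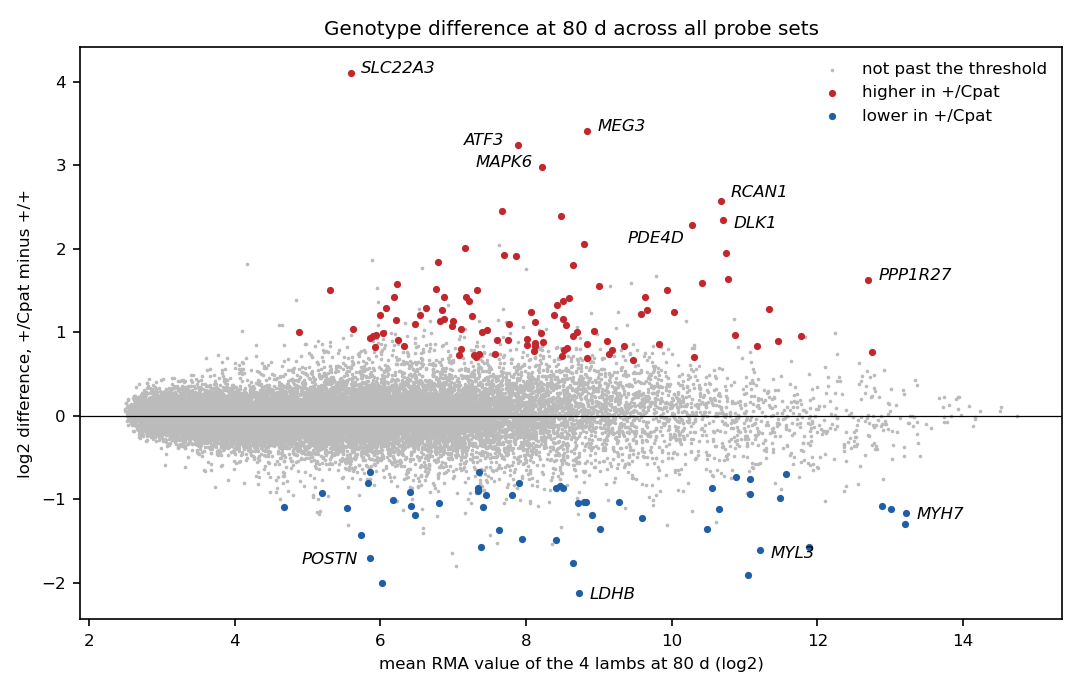
Genotype difference (log2, callipyge minus normal, y axis) against the mean RMA value of the 4 lambs at 80 d (log2, x axis) for 24016 probe sets. Red points are the 102 probe sets called higher and blue points the 51 called lower in callipyge muscle, grey points the rest, and 12 genes are named. The rises reach further from 0 (*SLC22A3*, 4.10) than the falls (*LDHB*, -2.12).

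*DLK1* and *MEG3* rose, and the other measured genes in or near the mutated domain did not pass the test. *DLK1*, a transmembrane protein of the Notch ligand family that is read from the paternal chromosome, was 11.77 and 11.98 in the callipyge lambs and 9.54 and 9.52 in the normal lambs. This was a 5.09-fold rise, with a log2 difference of 2.35 (SE 0.26) and an adjusted p of 0.00182 from limma. *MEG3*, a long noncoding RNA read from the maternal chromosome, was 10.52 and 10.56 in the callipyge lambs against 7.69 and 6.56 in the normal lambs, a rise of 10.6-fold (log2 difference 3.41, SE 0.49, adjusted p = 0.00705). The lambs of the genotypes were far apart for both genes, and the normal lambs differed from each other more for *MEG3* than for *DLK1*. Of 5 probe sets annotated as *MEG3*, 2 were called, and the differences of the 5 ran from 0.02 to 3.41. The second called one (1.21, adjusted p = 0.014) bears the name *CRTC1* in the tables of the study, so its gene is uncertain. The second probe set of *DLK1* was near the median level of the array and differed by 0.50 (adjusted p = 0.725). Without the second normal lamb the difference of *MEG3* was 2.84 with an adjusted p of 0.142, whereas *DLK1* passed whichever lamb was left out. *RTL1* is not among the measured genes, since by the paper the array holds no probe set for it. Of 9 measured genes in or near the domain, *DLK1* and *MEG3* rose and the remaining 7 did not pass the test. The median over the 9 was -0.03. The largest of the 7 was *PPP2R5C*, a subunit of protein phosphatase 2A from the flank of the domain (log2 difference 0.78, SE 0.27, adjusted p = 0.386).

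Transcripts of 3 phosphodiesterases that break down cyclic AMP rose in callipyge muscle. *PDE4D* was 11.40 and 11.44 in the callipyge lambs and 9.36 and 8.90 in the normal lambs, 4.89-fold higher (log2 difference 2.29, SE 0.19, adjusted p = 0.000168), the smallest adjusted p of the 153. *PDE7A* was 9.46 and 10.20 against 8.10 and 7.43 (log2 difference 2.06, SE 0.33, adjusted p = 0.0163), and *PDE8A* was 7.56 and 7.46 against 6.40 and 6.48 (log2 difference 1.07, SE 0.20, adjusted p = 0.0369). Each callipyge lamb lay above both normal lambs for the 3 genes. *PDE4D* and *PDE7A* were named by the study and not by the annotation of the array. *PDE4B* (log2 difference 0.89, adjusted p = 0.295), *PDE4A* (0.45, adjusted p = 0.536) and *PDE7B* (0.16) did not pass. *PDE4D* passed whichever lamb was left out, whereas *PDE7A* did not pass without the second callipyge lamb (1.69) or the second normal lamb (1.73), and *PDE8A*, at 1.02 to 1.12, failed whichever of the 4 was left out. Of 28 measured genes of cyclic AMP signalling in the platform annotation, *PDE8A* rose, none fell and the median difference was 0.107, against -0.00539 for all genes, each taken by its brightest probe set, of which 0.918% were called, 0.579% higher and 0.339% lower. *CREM*, a cyclic AMP responsive transcription factor, had a difference of 1.05 (SE 0.33, adjusted p = 0.303).

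The remaining leading rises fell in several classes of protein. *SLC22A3*, a transporter of organic cations, showed the largest difference of all probe sets: 7.47 and 7.82 in the callipyge lambs and 3.21 and 3.86 in the normal lambs, 17.2-fold (log2 difference 4.10, SE 0.54, adjusted p = 0.00474). The normal values lay below the median of their arrays and the callipyge values well above it, so the fold and its rank rest on low normal values whose share of background is not known. *METTL21E*, a lysine methyltransferase of skeletal muscle, was 9.63 and 9.72 against 7.03 and 7.54 (log2 difference 2.40, SE 0.33, adjusted p = 0.00563), and its other probe set rose by 1.92. *DNTTIP1*, a subunit of a histone deacetylase complex, was 12.05 and 11.40 against 9.77 and 9.77, 3.87-fold higher (log2 difference 1.95, SE 0.22, adjusted p = 0.00182). *PARK7*, a protein of the defence against oxidative stress, was 12.06 and 11.89 against 10.66 and 10.74, 2.42-fold higher (log2 difference 1.28, SE 0.16, adjusted p = 0.00271). All of these lambs separated by genotype with gaps wider than the distance between 2 lambs of a genotype. *UCHL1*, a deubiquitinating enzyme, was 5.81 and 7.82 against 4.89 and 5.00 (log2 difference 1.87, adjusted p = 0.123). Its 2 callipyge lambs stood further apart than the nearer of them from the normal lambs, and it did not pass.

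Other genes of this set were known for roles in the cytoskeleton, in protein turnover or in signalling. *TPX2*, a microtubule binding protein of the mitotic spindle, rose by 1.84 (SE 0.26, adjusted p = 0.00638), with 7.77 and 7.65 in the callipyge and 5.97 and 5.78 in the normal lambs, and its other probe set rose by 1.58. *MAP1A*, a microtubule associated protein, rose by 1.51 (adjusted p = 0.00271). The cell cycle list as a whole had no called gene among 38 measured, with a median of -0.0361. *RNF145*, a ubiquitin ligase of the endoplasmic reticulum, was 9.02 and 8.77 against 6.66 and 6.23 (log2 difference 2.45, SE 0.46, adjusted p = 0.0428). *CST3*, the secreted protease inhibitor cystatin C, rose by 1.64 (adjusted p = 0.0303), with its 3 probe sets between -0.04 and 1.64. *PPP1R27*, a regulatory subunit of protein phosphatase 1, was 13.68 and 13.34 against 11.90 and 11.87 (log2 difference 1.62, SE 0.24, adjusted p = 0.00872). *CRABP2*, which carries retinoic acid in the cell, rose by 1.51 (adjusted p = 0.0572). Of the 10 genes in these 2 paragraphs that passed the test, 6, 8, 7 and 5 passed without the first and second callipyge and the first and second normal lamb, and *SLC22A3*, *METTL21E*, *DNTTIP1*, *PARK7* and *MAP1A* passed in all 4 cases.

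**Figure D2:**
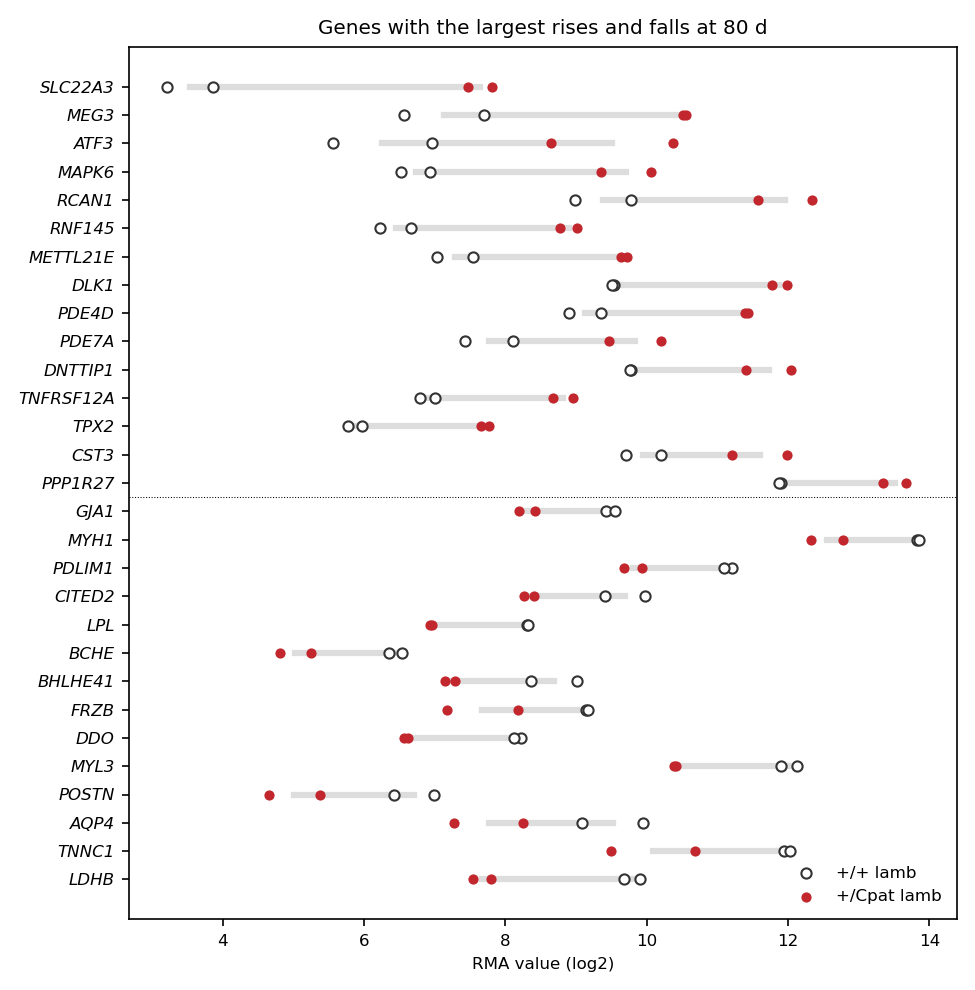
RMA values (log2, x axis) of the 15 genes with the largest rises and 14 of the 15 with the largest falls at 80 d among called probe sets with a gene symbol. Filled points are the 2 callipyge lambs, open points the 2 normal lambs, and the grey bar joins the means of the genotypes. The genotypes do not overlap in any of these genes, and lambs of a genotype lie furthest apart for *ATF3* (8.64 and 10.37 in callipyge muscle).

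*MAPK6* and *RCAN1* were among the 15 largest rises, and single other genes of kinase, receptor and calcium signalling were called in both directions. *MAPK6*, the atypical kinase ERK3, was 9.36 and 10.06 in the callipyge lambs and 6.52 and 6.94 in the normal lambs, 7.90-fold higher (log2 difference 2.98, SE 0.32, adjusted p = 0.00165). Its 4 probe sets ran from -0.45 to 2.98 and 2 were called. The leading one was named by the study and not by the annotation of the array, and the other called one rose by 1.56. *RPS6KA3*, the ribosomal S6 kinase RSK2, was 9.44 and 9.13 against 8.04 and 7.72 (log2 difference 1.41, SE 0.21, adjusted p = 0.0107). It was the gene called among 31 measured MAP kinases and their phosphatases, taken by the brightest probe set of each gene, where the median was 0.139, and *DUSP10*, a phosphatase of p38 and JNK kinases, did not pass (0.96, adjusted p = 0.12).

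*RCAN1*, an inhibitor of the calcium dependent phosphatase calcineurin, was 11.57 and 12.34 in the callipyge lambs and 9.78 and 8.98 in the normal lambs (log2 difference 2.57, SE 0.48, adjusted p = 0.0435). The difference between the genotypes was 5.94-fold, while lambs of the same genotype differed by less than 1 on the log2 scale. The remaining 10 of 11 measured genes of calcineurin and NFAT did not pass, with *NFATC1* at 0.56 (adjusted p = 0.493) and a median of 0.167 over the list, which was -0.0737 with MAS5 values. *CALM3*, a calmodulin gene, rose by 0.71 (adjusted p = 0.0974) and was the gene called among 15 of calcium handling. *S100A1*, a calcium binding protein of muscle, was 4.88 and 5.11 against 6.13 and 6.06, a fall of 2.14-fold (log2 difference -1.10, SE 0.15, adjusted p = 0.00563). These callipyge values lay below the median of their arrays, so the share of background in the fold is not known. The brighter probe set of *S100A1* did not pass (-0.55, adjusted p = 0.592). *ROCK2*, a kinase downstream of the GTPase RhoA, rose by 1.26 (adjusted p = 0.0552) in one probe set and was at -0.15 in its brighter one. *TNFRSF12A*, the receptor of the cytokine TWEAK, rose by 1.92 (adjusted p = 0.0874, with its other probe set at 0.39) and *P2RY1*, a receptor for extracellular nucleotides, by 1.42 (adjusted p = 0.0662). Of these 8 called genes, 2, 3, 4 and 2 passed without the first and second callipyge and the first and second normal lamb. *MAPK6* and *S100A1* passed each time, while *RCAN1*, at 2.17 to 2.97, failed whichever lamb was left out.

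Several slow fiber contractile genes fell, whereas no fast fiber contractile gene was called by its brightest probe set. Of 13 measured slow fiber genes, 5 fell and none rose, against 0.339% and 0.579% of all genes, 12 of 13 had a difference below 0 and the median was -1.01. In 11 of them both callipyge lambs lay below both normal lambs, as in 22% of all probe sets. *MYL3*, the slow essential light chain of myosin, was 10.42 and 10.39 in the callipyge lambs and 12.12 and 11.91 in the normal lambs, 3.05-fold lower (log2 difference -1.61, SE 0.20, adjusted p = 0.00265). *TNNT1*, slow troponin T, was 12.67 and 12.25 against 13.61 and 13.53 (log2 difference -1.11, SE 0.16, adjusted p = 0.00854). *TNNC1*, the troponin C of slow and cardiac muscle, was 11.74 and 10.46 against 12.59 and 12.74 (log2 difference -1.57, SE 0.32, adjusted p = 0.0627). Its other probe set was 10.68 and 9.50 against 11.95 and 12.03 and fell by 1.90.

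*MYL2*, the slow regulatory light chain, was 12.76 and 11.95 in the callipyge lambs against 13.54 and 13.32 (log2 difference -1.08, SE 0.22, adjusted p = 0.0627). *MYH7*, the slow myosin heavy chain, was 12.67 and 12.60 against 13.94 and 13.65, 2.24-fold lower (log2 difference -1.16, SE 0.26, adjusted p = 0.0835). Of its 3 probe sets this was the one that fell, and the other two differed by 0.02 and -0.03. The second callipyge lamb was the lower of the 2 in *TNNC1*, *TNNT1* and *MYL2*, and both were alike in *MYL3* and *MYH7*. Genes of the list that did not pass included *MYOZ2*, a Z disc protein of slow fibers (-1.02, adjusted p = 0.198), *PLN*, the phospholamban that restrains the slow calcium pump (-1.01, adjusted p = 0.212), and *ATP2A2*, that pump itself (-0.75, adjusted p = 0.232). Less bright probe sets of *PLN* and *ATP2A2* were called, both at -1.03 (adjusted p = 0.0441 and 0.0752). The gene above 0 was *ANKRD1*, a stress responsive ankyrin repeat protein (0.61, SE 0.60). Without the first callipyge lamb 4 of the 5 genes passed, and without the second callipyge, the first normal or the second normal lamb 1 passed, which was *MYL3* each time. Without the second callipyge lamb the difference of *TNNC1* was -0.92 and that of *MYL2* -0.67. In bulk muscle, fewer slow fibers and less of these transcripts in each slow fiber cannot be told apart.

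The 12 measured fast fiber genes had a median difference of 0.118, with 8 above 0 and 4 below. *MYLK2*, the myosin light chain kinase of skeletal muscle, was 9.06 and 9.30 against 7.94 and 8.38 (log2 difference 1.02, SE 0.25, adjusted p = 0.133), and *ACTN3*, the actinin of fast fibers, was 12.42 and 12.62 against 12.16 and 12.04 (0.42, adjusted p = 0.362). Both separated the genotypes without passing. *MYH1*, a fast myosin heavy chain, had 8 probe sets that did not go one way: differences ran from -1.29 to 0.46, and 1 was called, at 12.32 and 12.78 in the callipyge lambs against 13.83 and 13.86 (adjusted p = 0.0147). The brightest one differed by 0.23 (adjusted p = 0.904). Myosin heavy chains are near copies of each other, so a bovine probe set may also read the sheep transcript of another member.

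**Figure D3:**
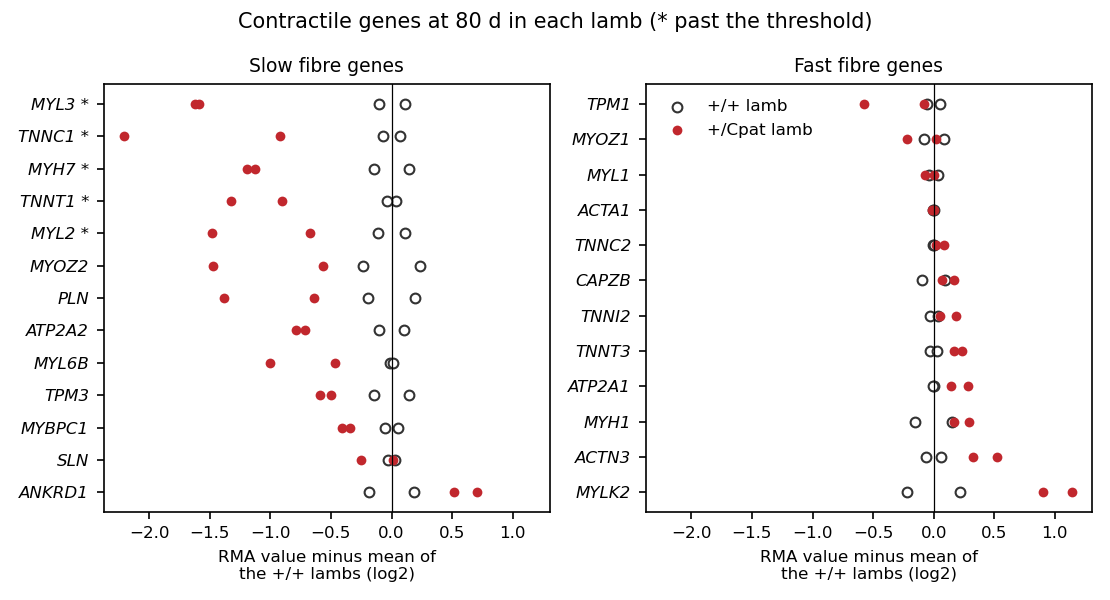
RMA values of slow (left) and fast (right) fiber contractile genes in each lamb at 80 d, with the mean of the 2 normal lambs subtracted (log2, x axis), by the brightest probe set of each gene. Filled points are callipyge lambs, open points normal lambs, and an asterisk marks an adjusted p under 0.1. The callipyge lambs lie below the normal lambs in 11 of 13 slow genes, and no fast gene is marked.

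Genes of oxidative metabolism were lower by a small amount in most lists, and few of them passed the test. *LDHB*, the subunit of lactate dehydrogenase that prevails in oxidative muscle and heart, had the largest fall of the array: 7.55 and 7.79 in the callipyge lambs and 9.68 and 9.90 in the normal lambs, 4.35-fold (log2 difference -2.12, SE 0.25, adjusted p = 0.00196). *IDH2*, the mitochondrial isocitrate dehydrogenase, was 10.38 and 10.85 against 11.57 and 11.53 (log2 difference -0.94, SE 0.20, adjusted p = 0.0714) and was the gene called among 21 of the TCA cycle, of which 19 were below 0 with a median of -0.35. *IDH1* (-0.73, adjusted p = 0.13) and *CS*, citrate synthase (-0.57, adjusted p = 0.305), did not pass. *ATP5ME*, a membrane subunit of ATP synthase, fell by 0.86 (adjusted p = 0.0787), and all 17 measured subunits were below 0 with a median of -0.283.

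No gene of respiratory complex I passed, although 31 of 36 were below 0 with a median of -0.326 and both callipyge lambs lay below both normal lambs in 27, as in 22% of all probe sets, and *NDUFB8* had the smallest p (-0.62, adjusted p = 0.207). Complexes III and IV likewise had none called of 22, with 21 below 0 and a median of -0.359. Of 34 genes of fatty acid oxidation, 27 were below 0 with a median of -0.245. *ECI2*, an isomerase for unsaturated fatty acids, fell by 0.80 (adjusted p = 0.0804), while *UCP3*, the mitochondrial uncoupling protein of muscle, was 11.40 and 11.30 against 10.49 and 10.28 and rose by 0.96 (adjusted p = 0.0552). *ALAD*, an early enzyme of haem synthesis, fell by 1.03 (adjusted p = 0.0714), and 11 of 12 genes for haem and myoglobin were below 0 with a median of -0.351. The summed linear level of complex I was 60150 to 64710 in callipyge and 72990 to 81700 in normal lambs, and that of the TCA cycle 40820 to 42610 and 53520 to 55280. None of 12 measured regulators of mitochondrial biogenesis was called, with a median of 0.0767 that was -0.125 with MAS5 values.

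Fat and amino acid metabolism held further single genes. *LPL*, the lipase that releases fatty acids for uptake from blood, was 6.94 and 6.96 in the callipyge lambs and 8.30 and 8.32 in the normal lambs, 2.57-fold lower (log2 difference -1.36, SE 0.19, adjusted p = 0.00573). The 2 lambs of each genotype were almost equal. *PCTP*, a carrier of phosphatidylcholine, rose by 1.14 (adjusted p = 0.0147), and *CD36*, a fatty acid transporter, did not pass (-0.88, adjusted p = 0.272). These were 1 gene lower and 1 higher of 28 for lipid uptake and synthesis, where the median was -0.154. Of 37 genes for amino acids, 3 fell and none rose, against 0.339% and 0.579% of all genes. They included *DDO*, which oxidizes D-aspartate (-1.58, adjusted p = 0.0531), and *PCCB*, a subunit of propionyl-CoA carboxylase (-0.84, adjusted p = 0.0787). The remaining one was *CDO1*, which starts the breakdown of cysteine (-0.92, adjusted p = 0.0714), with its other probe set at -0.00146. Of the 11 genes of energy, lipid and amino acid metabolism that were called, 2, 4, 2 and 3 passed without the first and second callipyge and the first and second normal lamb, and *LDHB* and *LPL* passed each time.

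Glycolytic genes were higher in level, without a call by the brightest probe set. Of 25 measured, 20 were above 0, the median was 0.227 and both callipyge lambs lay above both normal lambs in 17, as in 21.1% of all probe sets, while they lay below both in 4. *PFKM*, the muscle phosphofructokinase, was 12.82 and 12.95 against 12.31 and 12.21 (log2 difference 0.63, SE 0.16, adjusted p = 0.16), and another of its 3 probe sets was called at 0.90 (adjusted p = 0.0655). *GPI*, which interconverts the hexose phosphates, differed by 0.55 (adjusted p = 0.18) and *TPI1*, triose phosphate isomerase, by 0.54 (adjusted p = 0.349). The summed linear level of the list was 113400 to 116700 in callipyge and 94670 to 98690 in normal lambs. The 14 genes of glycogen metabolism had a median of 0.000347, with *PGM1*, which makes glucose 6-phosphate from glycogen sugar, at 0.47 (adjusted p = 0.255).

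Chaperones and stress responsive genes rose in part. By the brightest probe set of each gene, 4 of 40 measured heat shock proteins and cochaperones rose and none fell. Of all genes, 0.579% were called higher and 0.339% lower. The list median was 0.356, the highest of 57 lists. In 27 of the 40 genes both callipyge lambs lay above both normal lambs, as in 21.1% of all probe sets. *DNAJB5*, a cochaperone of HSP70, was 10.57 and 10.75 against 9.62 and 9.21, 2.37-fold higher (log2 difference 1.25, SE 0.17, adjusted p = 0.00474), while its less bright probe set was at -0.32. *DNAJB1*, the main stress induced partner of HSP70, was 8.15 and 7.65 against 6.83 and 6.21 (log2 difference 1.38, SE 0.29, adjusted p = 0.0655), and its other probe set rose by 1.14. *BAG2*, which inhibits the ubiquitin ligase CHIP, rose by 1.37 (adjusted p = 0.0823), with its other probe set at 0.13. *DNAJA1*, another HSP70 partner, rose by 1.03 (adjusted p = 0.0926). *HSPA1A*, the inducible HSP70 itself, did not pass (0.72, adjusted p = 0.309).

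*ATF3*, a transcription factor induced by stress, was 8.64 and 10.37 in the callipyge lambs and 6.96 and 5.56 in the normal lambs, 9.50-fold higher (log2 difference 3.25, SE 0.59, adjusted p = 0.0343). The lambs of each genotype were well apart from each other, yet the genotypes did not overlap. The immediate early list held no other call among 25 genes, with a median of 0.114, and *KLF10*, a repressor induced by TGF-beta, was at -1.34 (adjusted p = 0.237). *PPP1R15A*, the stress induced subunit that reverses the phosphorylation of eIF2-alpha, rose by 1.23 (adjusted p = 0.0974). No other gene of 23 in the unfolded protein response passed, and the median there was 0.0183.

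Of the genes of protein turnover, 38 measured proteasome subunits had none called and a median of 0.252, with 31 above 0, and *PSMD14*, a deubiquitinating subunit of the lid, was at 0.52 (adjusted p = 0.485). The 23 ubiquitin ligases and atrophy genes had none called and a median of 0.215, with the ligase *FBXO32* at 1.16 (SE 0.58, adjusted p = 0.734). Of 39 genes for autophagy and lysosomes, 2 rose and none fell, against 0.579% and 0.339% of all genes. They were the proteases *ATG4A* (0.89, adjusted p = 0.0572) and *ATG4D* (1.00, adjusted p = 0.0749), which process ATG8 proteins. The median of the list was 0.077, and *ATG5* was at 0.68 (adjusted p = 0.17). The 42 translation factors (median 0.0527) and 63 cytosolic ribosomal proteins (median -0.0813) had none called. Of the 8 called genes in the paragraphs on stress and turnover, 2, 1, 3 and 0 passed without the first and second callipyge and the first and second normal lamb. The differences of *ATF3* in these fits were 4.11, 2.39, 3.95 and 2.55.

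**Figure D4:**
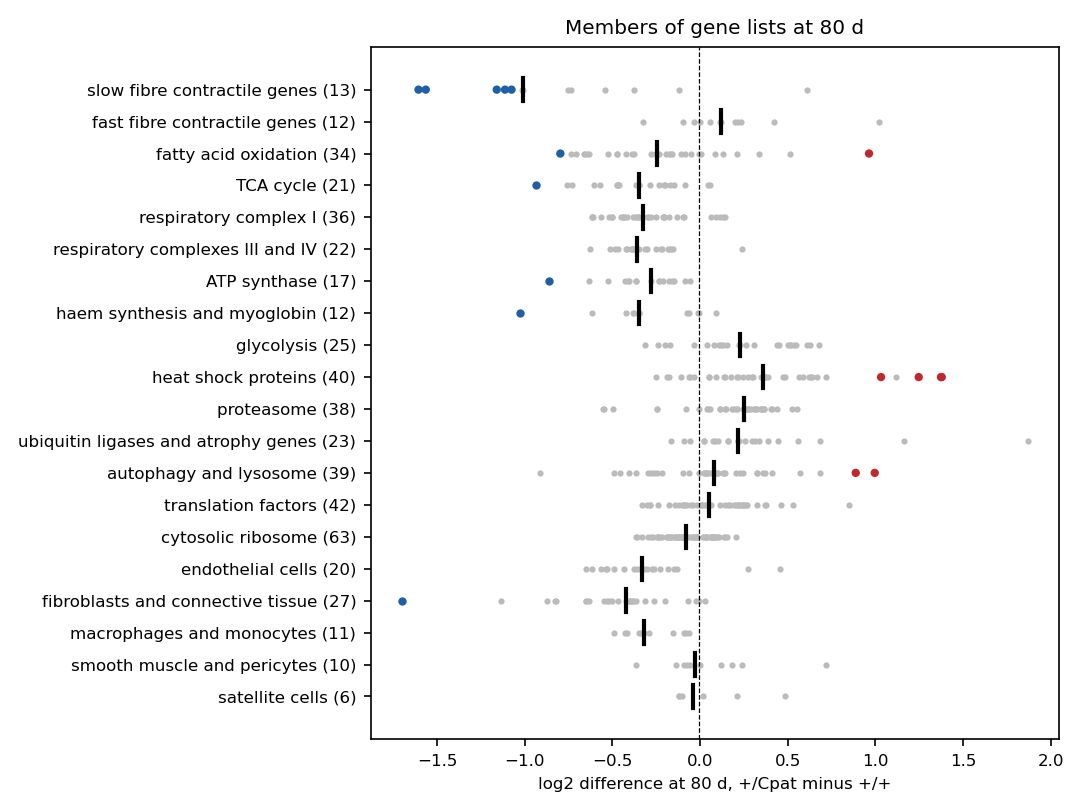
Genotype difference at 80 d (log2, callipyge minus normal, x axis) of the members of 20 gene lists, 1 point for the brightest probe set of each gene, with the number of measured genes in parentheses. Red and blue points are genes called higher and lower, black bars the median of a list, and the dashed line the median of all genes (-0.00539). Slow fiber genes have the lowest median (-1.01) and heat shock proteins the highest (0.356).

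Levels of connective tissue genes were lower in callipyge muscle, and few passed the test. *POSTN*, periostin, a matrix protein made by fibroblasts, was 4.65 and 5.37 in the callipyge lambs and 6.995 and 6.42 in the normal lambs, 3.25-fold lower (log2 difference -1.70, SE 0.27, adjusted p = 0.0147). The callipyge values were not far from the median of their arrays, so the share of background in this fold is not known. *POSTN* was the gene called among 27 measured markers of fibroblasts and connective tissue, of which 26 were below 0 with a median of -0.42. *COL1A1*, the chain of the main fibrillar collagen, was 9.34 and 10.07 against 10.92 and 10.77 (log2 difference -1.14, SE 0.29, adjusted p = 0.16), and *COL6A1*, a collagen of the muscle interstitium, was at -0.65 (adjusted p = 0.305). A less bright probe set of *COL3A1*, another fibrillar collagen, fell by 0.98 (adjusted p = 0.0974). The first callipyge lamb had the lowest values of these 4 genes. The summed linear level of the list was 11300 and 15790 in the callipyge lambs and 21390 and 20200 in the normal lambs.

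Single other genes of the matrix, vessels and fiber membrane fell. *NID2*, a basement membrane protein, fell by 1.09 (adjusted p = 0.0572), and *FRZB*, a secreted antagonist of Wnt, was 8.18 and 7.17 against 9.14 and 9.17 (log2 difference -1.48, adjusted p = 0.0987). *VEGFA*, the growth factor of vessel endothelium, was 9.68 and 10.50 against 11.31 and 11.09, 2.16-fold lower (adjusted p = 0.0842), with its other probe set at -0.45. *GJA1*, the gap junction protein connexin 43, fell by 1.18 (adjusted p = 0.0203) in 1 probe set and was at -0.06 in its other. *AQP4*, the water channel of the fiber membrane, was 8.26 and 7.27 against 9.09 and 9.95 (log2 difference -1.76, SE 0.32, adjusted p = 0.0354). Its other probe set was at -0.83. Of these genes and the called ones of the paragraph before, 7 in all, 2, 4, 1 and 1 passed without the first and second callipyge and the first and second normal lamb, and none passed in all 4 cases. *POSTN* had differences of -1.34, -2.06, -1.42 and -1.99 in these fits.

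Beside *POSTN*, no marker of another cell type passed the test by its brightest probe set. The levels of some marker lists were lower in callipyge muscle. None of 20 endothelial markers was called, 18 were below 0 with a median of -0.334, and their summed linear level was 4112 and 4755 in callipyge and 5839 and 6305 in normal lambs, with *EMCN*, endomucin, at -0.54 (adjusted p = 0.315). All 11 macrophage markers were below 0, with a median of -0.319, summed levels of 509.1 and 551.8 against 639.1 and 710, and no call. Of 15 lymphocyte markers 13 were below 0 (median -0.146), with summed levels of 503.8 to 536.1 in callipyge and 525.1 to 626.7 in normal lambs. Markers of adipocytes (12, median -0.0993), smooth muscle and pericytes (10, median -0.0294), satellite cells (6, median -0.0408), Schwann cells and nerve (8, median -0.111) and erythrocytes (6, median 0.0274) had none called, and neither had 9 liver genes (median 0.026). The liver genes, a check of an absent tissue, had summed levels of 1116 to 1508 in callipyge and 1241 to 1430 in normal lambs. These sums lay above those of the macrophage, lymphocyte, satellite cell, Schwann cell and nerve, and erythrocyte markers, whose share of background is not known. No RMA value is 0, so absence of a marker cannot be read from it. The part of these cells in the falls of matrix, vessel and oxidative genes was not tested.

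Regulators of transcription and scaffold proteins of the Z disc were found in both directions. *BHLHE41*, a repressor of the clock and of muscle differentiation, was 7.14 and 7.28 in the callipyge lambs and 9.01 and 8.36 in the normal lambs, 2.77-fold lower (log2 difference -1.47, SE 0.24, adjusted p = 0.0194). Its relative *BHLHE40* was 7.38 and 7.80 against 8.88 and 9.38 and did not pass (-1.54, SE 0.40, adjusted p = 0.174). *RORA*, a nuclear receptor of the clock, was 7.19 and 7.36 against 6.17 and 5.78 and rose by 1.30 (adjusted p = 0.0435), the gene called among 9 clock genes of the platform annotation, where the median was 0.311. *BHLHE41* is not among the 9, since its probe set was named by the study alone. *CITED2*, a coregulator that restrains hypoxia signalling, fell by 1.35 (adjusted p = 0.0343), and *HDAC9*, a histone deacetylase that binds MEF2, by 1.18 (adjusted p = 0.0547). *SOX6*, a repressor of slow fiber genes, was 8.49 and 8.58 against 7.80 and 7.61 and rose by 0.83 (adjusted p = 0.0799), while *FOXP1*, a forkhead factor, fell by 0.87 (adjusted p = 0.0787) in the probe set named by the study and was at -0.05 and 0.11 in those named by the annotation.

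*PDLIM1*, a PDZ and LIM domain protein of the Z disc and stress fibers, was 9.94 and 9.68 in the callipyge lambs against 11.21 and 11.10, 2.55-fold lower (log2 difference -1.35, SE 0.16, adjusted p = 0.0026). *PDLIM7*, of the same family, was 12.42 and 12.10 against 11.24 and 11.35 and rose by 0.96 (adjusted p = 0.0343), and its brightest probe set rose by 0.76. The remaining probe set of *PDLIM7* was at -0.09. The called probe sets of these relatives thus moved in opposite directions, with the genotypes apart in each. Of the 8 called genes of this and the preceding paragraph, 1, 2, 2 and 2 passed without the first and second callipyge and the first and second normal lamb, and *PDLIM1* passed each time. The 17 measured myogenic regulators had none called and a median of 0.0191, the 24 genes of myostatin, activin and TGF-beta signalling none and 0.0244, and the 36 of IGF, insulin and mTOR signalling 1 lower, the IGF binding protein gene *IGFBP4*, and a median of -0.0055. Over all 57 lists, 22 of 1228 measured genes rose and 18 fell, against 0.579% and 0.339% of all genes, 31 lists had no called gene and 30 had a median within 0.1 of 0.

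The other 12 lambs gave a measure of the same differences in other animals at 10, 20 and 30 d. Of the 153 probe sets called at 80 d, 146 (95.4%) had the same direction in the mean difference at the earlier ages, against 58.8% of all probe sets, and 120 (78.4%) had one direction at all 4 ages, against 20.2%. At the earlier ages 199 probe sets (0.829%) were called, 117 higher (0.487%) and 82 lower (0.341%), and 67 of the 153 were among them. The differences of *DLK1* were 1.89, 2.42 and 2.71 at 10, 20 and 30 d and 2.35 at 80 d, and those of *SLC22A3* were 2.96, 2.64, 2.93 and 4.10. *LDHB* had -1.36, -0.88, -0.67 and -2.12, and *MYL3* -0.53, -0.80, -1.29 and -1.61. The median absolute difference of the 153 was 0.467 at the earlier ages, and 144 were larger at 80 d, which follows in part from their choice by the 80 d difference. The slow fiber list had medians of -0.495, -0.373 and -0.191 at 10, 20 and 30 d and -1.01 at 80 d, and the heat shock list 0.122, 0.0898, 0.127 and 0.356.

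The change of the difference with age was tested directly, as the 80 d difference minus the mean of the earlier ones. No probe set of 24016 (0%) passed in limma, and 745 had an unadjusted p under 0.05. The smallest adjusted p was 0.198, shared by 3 probe sets. *MAPK6* had differences of 0.84, 0.51 and 0.96 at 10, 20 and 30 d and 2.98 at 80 d, a change of 2.21 (SE 0.37). *DNAJB5* had -0.16, 0.54 and -0.17 and then 1.25, a change of 1.18, and *S100A1* had -0.12, -0.16 and 0.25 and then -1.10, a change of -1.09. *POSTN* followed with -0.44, 0.24 and 0.20 and then -1.70 (adjusted p = 0.467), and the less bright probe set of *DNAJB1* with 0.09, -0.49 and 0.16 and then 1.14 (adjusted p = 0.578). Since no probe set passed, a larger difference at 80 d than before was not shown for any single gene at the threshold. Age and weaning cannot be told apart in this comparison. *GDAP1*, a protein of the outer mitochondrial membrane, had -0.29, 0.31 and 0.28 and then 1.30, a change of 1.19 (adjusted p = 1).

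Of 27 probe sets whose genes the study kept by a quantitative PCR test, 12 rose and 7 fell at 80 d, against 0.637% of all probe sets called. In the other 8 the genotypes did not overlap, as in 43.2% of all probe sets. The study picked most of them from these arrays and kept them by a test on samples that include these lambs, so they are no independent evidence of a direction. Other genes that it tested and did not keep in this muscle are outside the 27. Some of them, *MYL3*, *PDLIM1*, *PDLIM7*, *ROCK2*, *RPS6KA3*, *UCHL1* and *PGM1*, are described above. For *RPS6KA3* the study found a difference by that test in the *longissimus dorsi* alone. Beside genes given above, *RSPRY1* was 7.16 and 7.13 in the callipyge lambs and 5.95 and 5.92 in the normal lambs and rose by 1.21 (adjusted p = 0.0217). *KCNN3*, a calcium activated potassium channel, rose by 0.73 (adjusted p = 0.072). *TXNIP*, the inhibitor of thioredoxin, was 11.20 and 11.25 against 11.98 and 11.85 and fell by 0.69 (adjusted p = 0.0855), and *FCGRT*, the receptor that recycles IgG, fell by 0.73 (adjusted p = 0.0877). *AKR1C4*, an aldo-keto reductase, was at -1.35 (adjusted p = 0.14) and *COQ8A*, a kinase-like protein of coenzyme Q synthesis, at -0.69 (adjusted p = 0.135). *HIPK2* (1.06, adjusted p = 0.499), *COQ10A* (0.76, adjusted p = 0.198), *APOD* (0.74, adjusted p = 0.424) and *CAST*, the inhibitor of calpains (0.52, adjusted p = 0.214), did not pass either. A probe set of the noncoding RNA *MEG8* differed by 0.25 (adjusted p = 0.916). The study kept this member of the 27 from its comparisons of the maternal allele, not from callipyge against normal lambs. Among the larger falls outside the lists, *BCHE*, butyrylcholinesterase, was 5.25 and 4.81 against 6.54 and 6.35 and fell by 1.42 (adjusted p = 0.0787).

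**Figure D5:**
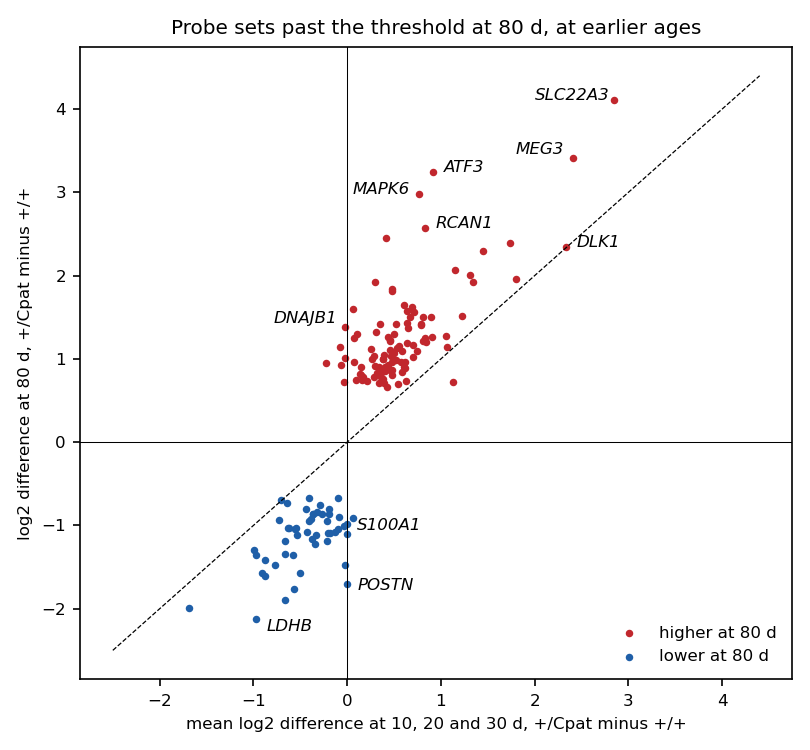
Genotype difference at 80 d (log2, y axis) against the mean genotype difference at 10, 20 and 30 d (log2, x axis) for the 153 probe sets called at 80 d, red where higher and blue where lower in callipyge muscle, with 10 genes named. The dashed line marks equal differences, and 144 of the points lie further from 0 at 80 d.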

How the data were processed

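RNA of the *semimembranosus* was hybridized to bovine Affymetrix arrays, 1 for each lamb. The authors deposited RMA values on a log2 scale, which are background corrected, quantile normalized and summarized by probe set, and MAS5 values as intensity on a linear scale, not scaled between arrays. The versions of MAS5, GCOS and RMA, and which arrays were normalized together, are not given in the sources used here. The mean RMA value was 5.66 to 5.70 in all arrays at 30 d and in replicate 1 of both genotypes at 20 d, and 5.50 to 5.52 in the others, with both genotypes in each set. The 4 arrays at 80 d belong to the second set.

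The limma package (3.58.1) was run in R 4.3.3. Of 24128 probe sets, 112 control probe sets were left out. Cell means of genotype by age were estimated from 16 arrays by lmFit and eBayes (8 residual and 6.58 prior degrees of freedom), and the genotype difference at 80 d, its mean at 10, 20 and 30 d, and the difference of these were tested as contrasts. P-values were adjusted over 24016 probe sets by the Benjamini and Hochberg method, with a threshold of 0.1. The code was tested on simulated data. Where a lamb was left out, the lone lamb of its genotype was assumed to vary like the others.

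Of the probe sets, 13292 had 1 gene symbol in the platform annotation and 86 had several. A further 75 were named by the tables of the study, whose names are older. Lists used the platform names and the probe set with the highest mean in the 16 arrays for each gene. Summed levels are sums of linear RMA values of a list.

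The members, the lists and the tests were chosen with earlier results of these data known. Named were the 15 largest rises and falls among called probe sets with a symbol, up to 4 members of a list with the smallest p, genes the study kept by quantitative PCR, the 10 probe sets with the smallest p for the change with age, and genes of the domain, the phosphodiesterases, *PARK7*, *UCHL1* and *METTL21E*. Outside this rule and after their values were seen, *ACTA1*, *CKM*, *ROCK2*, *P2RY1*, *MAP1A*, *NID2*, *SOX6*, *FOXP1*, *MYH7*, *MYOZ2*, *PLN*, *ATP2A2*, *ANKRD1*, *COL6A1*, *FBXO32*, *HSPA1A* and less bright probe sets of *COL3A1* and *PFKM* were named. Labels state no litter or pairing for a replicate number. The number of arrays limits the precision. The result for 1 of the named genes is not reported here.

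Alternatives were MAS5 values (log2 after addition of 16, each array first brought to a mean of 500 that left out the outer 2% on both sides), also quantile normalized, RMA values quantile normalized again, the 80 d arrays alone, other variance models, array weights, brighter probe sets, a threshold of 0.05, leaving out lambs or ages, and a replicate block.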

Additional observations from a re-analysis of the deposited data

How the results depend on the processing

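The 153 probe sets called at 80 d (102 higher, 51 lower, 40 list genes), 0 for the change with age and 199 at the earlier ages were recomputed. With the 4 arrays at 80 d alone, 351 were called (213 higher, 138 lower, 69 list genes). With the variance of each probe set alone, 4 were called (2 higher, 2 lower, 2 list genes, 38 earlier). MAS5 values gave 2 (2 higher, 0 lower, 1 list gene, 5 earlier), 3 after quantile normalization (3 higher, 0 lower, 1 list gene, 5 earlier), and 0 in every class with the 4 MAS5 arrays at 80 d alone. A threshold of 0.05 gave 63 (46 higher, 17 lower, 18 list genes, 118 earlier). Array weights gave 870 (512 higher, 358 lower, 134 list genes, 3 for the change with age, 82 earlier). Without the 20 d arrays 301 were called (190 higher, 111 lower, 61 list genes), and without the 30 d arrays 33 lower and 39 earlier. With the 10 and 80 d arrays alone there were 77 lower, 1 for the change with age and 34 earlier. Leaving out 1 lamb at 80 d gave 21 to 48 (12 to 33 higher, 9 to 21 lower, 9 to 16 list genes). The cause of these shifts was not tested, except that a stricter threshold by construction calls no more probe sets. Fits with fewer arrays gave more calls in some cases and fewer in others.

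Lambs of one number at 80 d deviated from the genotype means with a correlation of -0.106, and the labels give no pairing, so the lambs share only a number. With the number as a replicate block, 289 were called (171 higher, 118 lower, 1 for the change with age, 359 earlier), and *FOXP1* lost its call. With the numbers of the 80 d lambs crossed, a block chosen after seeing the data like the fits with 10 and 80 d arrays alone and with the 4 MAS5 arrays, 351 were called (210 higher, 141 lower, 2 for the change with age, 475 earlier, 73 list genes).

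With a trended and robust prior, with RMA values normalized again, and with brighter probe sets, the 80 d counts stayed within 1.5 times. The named genes kept their direction in these settings and in those above, except a probe set of *MEG3* that was not called (0.02) and ran from -0.31 without the second callipyge lamb to 0.35 without the first, with -0.20 without the second normal lamb. Of 57 list medians, 46 kept their sign with MAS5 values and 44 to 52 without 1 lamb.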
